A study of Mus musculus with 2 samples.

Results

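The genes described here are 10 genes of apoptotic cell clearance, chosen by name from the 32285 genes in the deposited matrices: the receptors Mertk and Axl, the bridging molecules Gas6, Pros1 and Mfge8, the integrin chains Itgav and Itgb5, and the receptors Stab1, Trem2 and Msr1. They were measured by single cell-based RNA sequencing of mononuclear cells from the quadriceps of WT mice, the genotype of both groups, at day 1 or day 3 after acute injury by BaCl2, a salt that kills muscle fibers on injection. The mice were male and 14 weeks old, cells of several mice were combined before sequencing, and each day is represented by 1 library, so that no test was possible and the spread between mice is not known. Cells had been sorted on light scatter to remove dead cells, debris and cell aggregates, and then frozen and thawed, so dying cells are under-represented by design, and uninjured muscle was not analysed here.

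Cells that die in injured tissue expose phosphatidylserine on the outer leaflet of their membrane, and phagocytes recognize it either directly or through soluble bridging molecules. Gas6 and protein S (Pros1), which carry Gla domains that bind this lipid, bridge it to the receptor tyrosine kinases Mertk and Axl, whereas Mfge8 bridges it to αv integrins such as αvβ5 (Itgav with Itgb5). Stabilin-1 (Stab1) is a scavenger receptor that can bind phosphatidylserine directly, Trem2 is a lipid-sensing receptor that signals through the adaptor Tyrobp, and Msr1 is the class A scavenger receptor. After acute muscle injury neutrophils arrive first, and macrophages derived from monocytes then clear dying cells and fiber debris while the muscle regenerates.

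Promoter sequence was found in the RefSeq-based table for 9 of the 10 genes; Msr1 had no entry. The 250 bases before the start of transcription are shown for the genes with the largest differences between days in the macrophages below, on build GRCm38.p6 and 5′ to 3′ on the strand of the gene. They are Mfge8 (chr7:79149061-79149310, minus strand), Gas6 (chr8:13494536-13494785, minus strand) and Trem2 (chr17:48346151-48346400, plus strand), and capitals mark GAGGAA, the core that PU.1 and other ETS factors bind, or GGGCGG, the GC box, on either strand.
Mfge8: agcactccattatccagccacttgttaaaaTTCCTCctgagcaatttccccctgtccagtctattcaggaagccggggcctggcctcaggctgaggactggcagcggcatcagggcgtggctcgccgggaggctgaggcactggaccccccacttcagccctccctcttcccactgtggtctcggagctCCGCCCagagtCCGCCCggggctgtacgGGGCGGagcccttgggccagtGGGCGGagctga
Gas6: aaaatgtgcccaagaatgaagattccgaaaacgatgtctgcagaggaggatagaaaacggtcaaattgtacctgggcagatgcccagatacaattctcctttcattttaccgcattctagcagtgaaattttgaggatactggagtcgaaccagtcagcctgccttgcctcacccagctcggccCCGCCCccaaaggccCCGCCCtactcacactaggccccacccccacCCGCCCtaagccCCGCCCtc
Trem2: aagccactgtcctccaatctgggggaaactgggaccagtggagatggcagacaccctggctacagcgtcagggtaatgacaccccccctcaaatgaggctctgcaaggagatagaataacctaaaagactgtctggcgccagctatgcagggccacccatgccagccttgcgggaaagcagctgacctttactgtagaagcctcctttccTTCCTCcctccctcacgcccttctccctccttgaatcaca
Of the 9 promoters, 5 (Axl, Mfge8, Stab1, Itgav and Trem2) held GAGGAA, against 23.3% of 32851 promoters of the same length, and 6 (Mertk, Axl, Gas6, Pros1, Mfge8 and Itgb5) held GGGCGG, against 32.7%. The windows of Mfge8, Gas6 and Trem2 differed: Trem2 held 1 GAGGAA, 40 bases before the start, and no GC box, Gas6 held 4 GC boxes and no GAGGAA, and Mfge8 held 4 GC boxes and 1 GAGGAA. None of the 9 windows held CACGTG (an E-box, in 6.02% of all promoters), TGACTCA (AP-1, 4.46%) or the interferon-stimulated response element (2.98%), which says only that these letters are not in these windows.

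On the GENCODE annotation of GRCm38, the build named mm10 in the submitters' processing notes, the genes lie on 6 chromosomes. Mertk lies at chr2:128698956-128802894 (plus strand), Itgav at chr2:83724397-83806916 (plus), Axl at chr7:25757273-25788705 (minus) and Mfge8 at chr7:79133768-79149060 (minus). Gas6 spans chr8:13465374-13494490 (minus), Msr1 chr8:39581685-39642673 (minus), Stab1 chr14:31139013-31168641 (minus), Itgb5 chr16:33829665-33949338 (plus), Pros1 chr16:62854307-62929346 (plus) and Trem2 chr17:48346401-48354147 (plus). The 3′ ends of Gas6 and Stab1, where this assay counts, are overlapped by Tmem255b and Nt5dc2 on the other strand.

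The libraries summed to 74852240 UMIs on day 1 and 102565783 on day 3. After filtering, 6735 cells of day 1 (median 9389 UMIs) and 4627 of day 3 (median 14548 UMIs) remained, and 0 of them shared a barcode between the libraries. The limit of 7.5% mitochondrial UMIs removed 7.02% of the barcodes taken on day 1 and 30.3% on day 3. The lists of possible barcodes also differed, with 737280 barcodes listed on day 1 and 6794880 on day 3, although the labels name the same kit; the day, the library and any difference in chemistry cannot be told apart. The level of a gene is given as CPM, its share of all UMIs of a group of cells, scaled to 1000000. One UMI stands for 1 molecule whatever its length, so levels carry no length term, although capture may differ between genes. A range after a level is its 95% confidence interval (CI) by the exact Poisson method; such intervals, like those of ratios, cover counting error only.

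Of the cells, 3317 on day 1 (49.3%) and 2492 on day 3 (53.9%) were monocyte/macrophage-like; all 10 markers on their naming list had UMIs, summing to 4683 CPM on day 1 and 10199 CPM on day 3. Neutrophil-like cells numbered 2076 and 247, dendritic cell-like cells 409 and 440, fibroblast/FAP-like cells (FAP, fibro/adipogenic progenitor) 664 and 849, satellite cell/myoblast-like cells 6 and 202, and endothelial cell-like cells 58 and 17. A cluster led by Plac8, of 193 and 339 cells, had Ly6c2 but also Mmp8 and Lcn2 among its leading genes and stayed unnamed. In that cluster the neutrophil list summed to 7291 CPM on day 1 and 3287 CPM on day 3. The monocyte/macrophage list summed to 2489 and 3508 CPM there. The fibroblast/FAP list summed to 6497 CPM on day 1 and 24279 CPM on day 3 within the cells it named, and the cells of day 1 also had the tenocyte list at 912 CPM, nearly all of it Thbs4. The neutrophil list summed to 91516 and 33002 CPM in neutrophil-like cells. The 10 genes were left out of the clustering and of the naming. Apart from the dendritic, endothelial and Plac8-led clusters, every cluster came mostly from 1 library, so the clusters that make up a cell type differed between the days.

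Macrophages had the highest level of 4 of the genes on day 1 and of 5 on day 3. Stab1, Itgb5, Trem2 and Msr1 had their highest level in monocyte/macrophage-like cells on both days, as did Mertk on day 3, among the types with at least 50 cells. Axl, Gas6, Pros1, Mfge8 and Itgav were highest outside macrophages, in fibroblast/FAP-like, myoblast-like or endothelial cell-like cells. On day 3 the lead of Itgav was small, 145 CPM in fibroblast/FAP-like cells against 135 CPM in macrophages. These levels were not corrected for foreign RNA (RNA of other cells), whose upper estimate was 32.0% in the former and 1.79% in the latter. The place of Itgav on day 3 is therefore uncertain. For the bridging molecules, macrophages came behind fibroblast/FAP-like cells on both days, and Gas6 was next in macrophages. Macrophages and fibroblast/FAP-like cells together held most Gas6 UMIs, 54.6% and 43.5% of those of all cells on day 1 and 48.7% and 49.3% on day 3. Dendritic cells came next to macrophages for Stab1, Itgb5, Trem2 and Msr1 on day 1, with intervals that did not overlap those of macrophages.

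**Figure D1:**
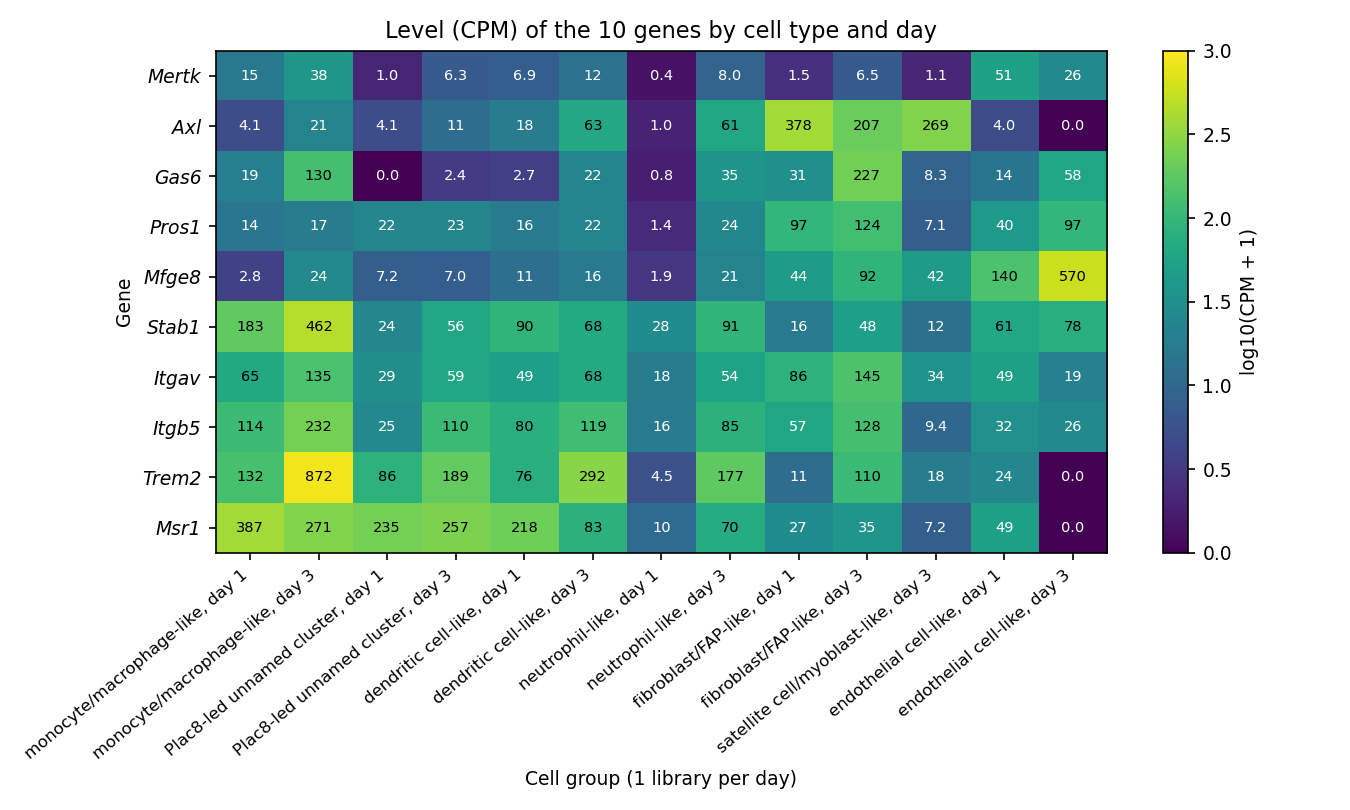
Level (CPM, printed in each cell; color, log10 of CPM + 1) of the 10 genes in each cell type and day, with 1 library per day. Macrophages hold the highest Trem2 (872 CPM on day 3) and Stab1 (462 CPM on day 3), and fibroblast/FAP-like and myoblast-like cells the highest Axl (378 CPM on day 1 and 268.5 CPM on day 3); the day 3 endothelial column rests on 17 cells.

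Within monocyte/macrophage-like cells, 8 of the 10 genes were more than 2-fold higher on day 3 than on day 1 and 0 were more than 2-fold lower. Over all genes with at least 500 UMIs in these cells, a filter that all 10 genes passed, 20.3% of 7991 were more than 2-fold higher and 5.47% more than 2-fold lower. The median log2 ratio was 1.32 over the 10 genes and 0.34 over all genes. Itgav and Itgb5 lay just above the 2-fold line, at 2.10-fold and 2.03-fold, and the count was 4 when ratios were centred on the median of all genes and 5 when cells were called at 10% of the 99th percentile of UMIs. UMIs of the neutrophil marker list summed to 1447 CPM in these cells on day 1 and 250.04 CPM on day 3, with all 10 markers detected on each day; the part of this in the differences was not tested.

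The TAM receptors Mertk and Axl were both low in macrophages and higher on day 3. Mertk, the receptor kinase used by macrophages for the silent removal of dying cells, had a level of 15.2 CPM (14.0–16.5) on day 1 and 37.7 CPM (35.9–39.7) on day 3, a log2 ratio of 1.31 (1.17–1.45). Axl, its relative, had 4.14 CPM (3.52–4.83) on day 1 and 20.9 CPM (19.5–22.3) on day 3, a log2 ratio of 2.33 (2.09–2.58). Foreign RNA could give 1.96 CPM of the Axl level of day 1 and 1.84 CPM of that of day 3, and with it subtracted the ratio was 3.12. Its UMIs in macrophages were 2.17% of all Axl UMIs of cells on day 1 and 9.98% on day 3, whereas macrophages held 85.9% and 86.0% of those of Mertk. Of the UMIs of Mertk and Axl together in macrophages, Mertk took 78.6% (75.5–81.5) on day 1 and 64.4% (62.5–66.3) on day 3; both intervals are exact binomial and do not overlap, and the shares were not corrected for foreign RNA.

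Among the bridging molecules, Gas6 and Mfge8 differed most and Pros1 least. The level of Gas6 in macrophages was 18.8 CPM (17.5–20.2) on day 1 and 130.2 CPM (127–134) on day 3, a log2 ratio of 2.79 (2.68–2.90). Mfge8 was the lowest of the 10 in macrophages on day 1, with 2.78 CPM (2.28–3.36), and had 24.5 CPM (23.0–26.0) on day 3, a log2 ratio of 3.13 (2.85–3.44). Its day 1 level rests on 109 UMIs, and a control given below could not decide whether it was background. Pros1, the other ligand of the TAM receptors, had 13.9 CPM (12.7–15.1) on day 1 and 17.2 CPM (16.0–18.5) on day 3. Its log2 ratio was 0.31 (0.15–0.47), close to the median of all genes, 0.34, which lies within that interval. Accordingly, Gas6 took 57.6% (54.8–60.3) of the UMIs of Gas6 and Pros1 in macrophages on day 1 and 88.3% (87.5–89.1) on day 3.

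The chains of integrin αvβ5 kept their proportion over all macrophages, though not in each cluster, as given below. Itgav had 64.5 CPM (62.1–67.1) in macrophages on day 1 and 135 CPM (132–139) on day 3, a log2 ratio of 1.07 (1.00–1.14). Itgb5 had 114 CPM (111–118) and 232 CPM (227–237), a log2 ratio of 1.02 (0.97–1.07). Itgav made up 36.1% (34.9–37.2) of their joint UMIs on day 1 and 36.8% (36.1–37.6) on day 3. In fibroblast/FAP-like cells the share was 60.1% (58.2–62.0) and 53.2% (52.0–54.4), and in day 3 myoblast-like cells 78.1% (73.7–82.2), where Itgb5 was hardly above the level that RNA of other cells could give.

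Of the remaining receptors, Trem2 and Stab1 were higher on day 3 and Msr1 was lower. Trem2 had 132 CPM (129–136) in macrophages on day 1 and 872 CPM (863–881) on day 3, a log2 ratio of 2.72 (2.68–2.76). Stab1 had 183 CPM (179–187) and 462 CPM (455–468), a log2 ratio of 1.34 (1.30–1.37). Msr1 had 387 CPM (381–394) on day 1 and 271 CPM (266–276) on day 3, a log2 ratio of -0.51 (-0.55 to -0.48). It was the only one of the 10 with a lower level on day 3 in these cells. On day 1 Msr1 had the highest level of the 10 in macrophages, and on day 3 Trem2 did: Trem2 took 25.5% (24.9–26.1) of their joint UMIs on day 1 and 76.3% (75.9–76.6) on day 3.

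**Figure D2:**
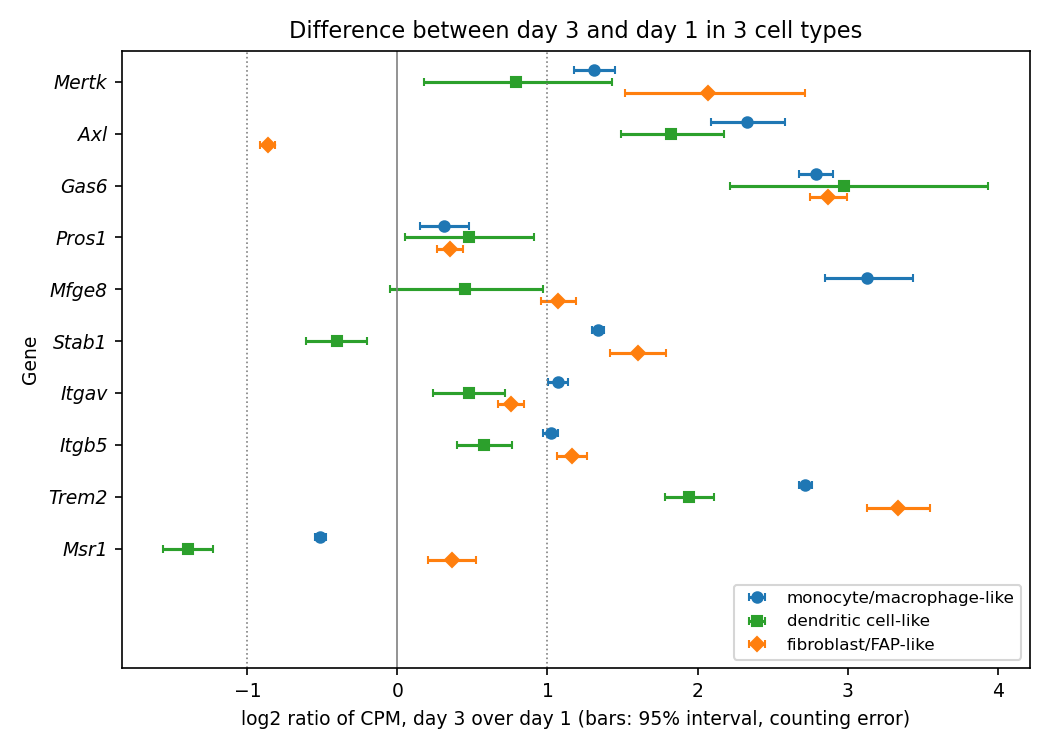
Log2 ratio of CPM, day 3 over day 1, for each gene (points) in 3 cell types, with 95% intervals for counting error; dotted lines mark 2-fold. Gas6 and Trem2 lie right of the 2-fold line in all 3 types, Axl lies at 2.33 in monocyte/macrophage-like cells and at -0.86 in fibroblast/FAP-like cells, and Msr1 lies left of 0 in macrophages and dendritic cells. The Trem2 and Stab1 levels of fibroblast/FAP-like cells were read as background, so these points show no expression of their own. No estimate of foreign RNA was made for dendritic cells.

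The share of cells with a UMI moved in the same way once each cell was thinned to 3000 UMIs, which left out 128 macrophages of day 1 and 40 of day 3 that were shallower. Trem2 was then detected in 27.4% of macrophages on day 1 (95% CI 25.8–29.0, Clopper-Pearson) and in 80.6% (79.0–82.2) on day 3, and without thinning in 54.5% and 94.6%. As a control, the thinned share of Trem2 in fibroblast/FAP-like cells, a type not known to express it, was 1.69% on day 1 and 13.9% on day 3, with median depths of 27583.5 and 25454 UMIs before thinning, against 11284 and 15055 in macrophages. Gas6 was detected in 3.64% (3.01–4.35) and 24.1% (22.4–25.8) of thinned macrophages, and in 7.36% and 52.5% without thinning. Its level was unevenly spread among day 3 macrophages, with a median of 43.2 CPM per cell and a 90th percentile of 355 CPM. Mertk was detected in 4.33% and 10.6% of thinned macrophages, Axl in 0.909% and 6.77%, Mfge8 in 0.753% and 4.65%, and Pros1 in 3.42% and 4.65%. In the 295 neutrophil-like cells of day 1 deep enough to thin, taken as another control, 0 had a UMI of Axl, Gas6 or Trem2, which allows a share of cells with a UMI of up to 1.02%. The shares of the other genes there were 0.339% for Mertk, 1.02% for Pros1, 2.03% (0.750–4.37) for Mfge8, 2.71% for Msr1, 5.42% for Itgav, 6.78% for Itgb5 and 8.81% for Stab1, and the median depth was 2156 UMIs over all 2076 cells of the type. The share of Mfge8 in macrophages of day 1, 0.753% (0.483–1.12), had an interval that overlaps this one. This overlap cannot decide whether the Mfge8 of macrophages on day 1 was background. Over all neutrophil-like cells of day 1, Mfge8 was itself 3.27 times what foreign RNA could give, so they do not measure background alone. In macrophages of day 1 foreign RNA could give only 0.379 CPM of the 2.78 CPM of Mfge8. Msr1 was detected in 64.5% (62.8–66.1) of thinned macrophages on day 1 and in 50.2% (48.2–52.2) on day 3.

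The genes also differed among macrophages of the same day. On day 1 the clusters were led by Il1a (1404 cells), Ppbp (1040), Dmkn (805) and Fcrls (46 cells); on day 3 by Fcrls (1429), Gpnmb (560), the interferon-induced gene Rsad2 (267), the proliferation gene Mki67 (162) and Dmkn (49 cells). Trem2 ranged from 97.5 CPM in Dmkn-led cells of day 1 to 1272 CPM (1252–1292) in Gpnmb-led cells of day 3, in which 100% of 560 cells had a UMI. Gpnmb-led cells also had the highest Gas6 (180 CPM, 172–188), Mfge8 (51.5 CPM, 47.6–55.7), Mertk (50.1 CPM, 46.2–54.2) and Itgb5 (281 CPM, 272–291); their median depth was 21289.5 UMIs, and that of Mki67-led cells 29062.5. Stab1 was highest in Mki67-led cells (564 CPM, 543–586).

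Axl was placed differently. Its highest level among macrophages was 63.6 CPM (54.7–73.6) in Rsad2-led cells of day 3, whereas Gpnmb-led and Mki67-led cells had 10.2 and 10.5 CPM. Rsad2-led cells had less Gas6 (41.1 CPM), Stab1 (155 CPM) and Trem2 (329 CPM) than the other large clusters of day 3. The 17 Rsad2-led cells of day 1 had 53.4 CPM of Axl, against 3.19 to 4.33 CPM in the Dmkn-led, Il1a-led and Ppbp-led clusters. Mertk and Axl were thus highest in different macrophages of day 3.

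The large clusters of day 1 differed as well. Ppbp-led cells, with Cd163, Pf4 and Mrc1 among their genes, had 43.0 CPM (39.6–46.7) of Gas6, and Il1a-led and Dmkn-led cells had 4.77 and 3.99 CPM. Mertk was 23.1 CPM in Ppbp-led cells, 12.8 CPM in Il1a-led cells and 6.83 CPM in Dmkn-led cells, and Trem2 was 188, 102 and 97.5 CPM. Msr1 ran the other way, with 414 CPM in Il1a-led, 408 CPM in Dmkn-led and 347.5 CPM in Ppbp-led cells. The proportion of Itgav to Itgb5 differed too, with 74.8 and 101 CPM in Il1a-led, 63.2 and 128 CPM in Ppbp-led and 48.1 and 119 CPM in Dmkn-led cells.

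**Figure D3:**
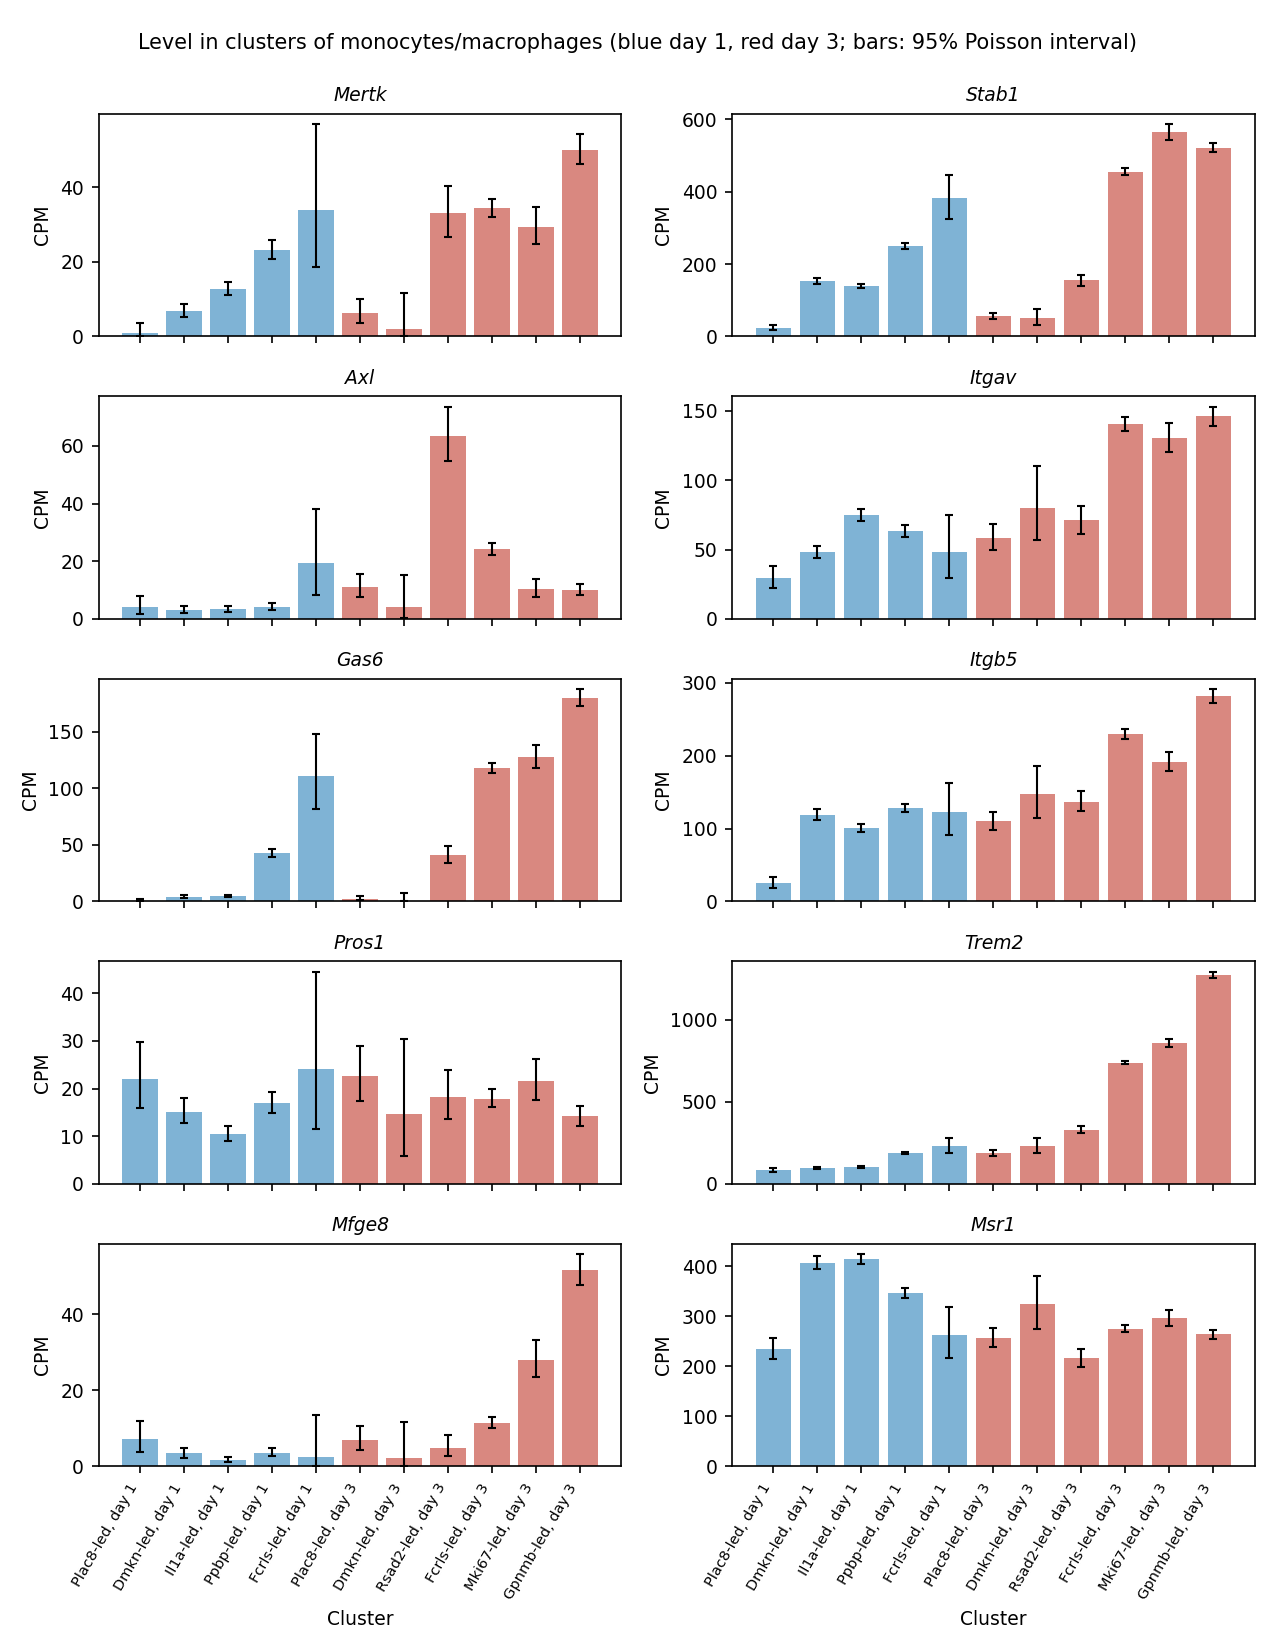
Level (CPM) of each gene in the clusters of monocytes/macrophages with at least 40 cells and in the Plac8-led cluster, blue for day 1 and red for day 3, with 95% Poisson intervals. Trem2 is highest in the Gpnmb-led bar (1272 CPM), Axl in the Rsad2-led bar (63.6 CPM), and the intervals of Mertk, Axl and Gas6 overlap between the Fcrls-led bars of both days.

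The Fcrls-led and Dmkn-led clusters held at least 40 cells on both days and allowed a comparison of the days within like cells, chosen after the data were seen. In Fcrls-led cells, where 8 of the 10 genes passed 500 UMIs, 3 of the 10, and 2 of those 8, were more than 2-fold higher on day 3 (11.5% of all genes with at least 500 UMIs there) and 0 more than 2-fold lower (4% of all such genes). Mertk was 33.9 CPM (18.5–56.8) on day 1 and 34.3 CPM (31.9–36.9) on day 3, a log2 ratio of -0.03 (-0.74 to 0.90), and Gas6 was 111 CPM (81.4–148) and 118 CPM (113–123), a log2 ratio of 0.07 (-0.34 to 0.54). The ratio of Axl was 0.24 (-0.66 to 1.55) and that of Msr1 0.05 (-0.21 to 0.35). These intervals are wide and do not show that the days were alike. Cells of both days were clustered together, so the cells of a cluster are alike by selection. Why ratios there differ from those over all macrophages was not tested. Trem2 still differed, with 230 CPM (186–281) on day 1 and 739 CPM (728–751) on day 3, a log2 ratio of 1.68 (1.40–1.99), as did Itgav (1.499, 0.90–2.25) and Itgb5 (0.88, 0.50–1.32). Stab1 had a ratio of 0.25 (0.02–0.49), an interval above 0. Mfge8, the third gene above 2-fold, rested on 1 UMI on day 1, and its ratio of 1.67 had an interval from -0.24 to 7.57.

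In Dmkn-led cells, where 4 of the 10 passed, 1 gene was more than 2-fold higher on day 3 (1.96% of all genes with at least 500 UMIs there) and 2 more than 2-fold lower (4.3% of all such genes), 1 of which passed. Gas6, with a count of 0 on day 3, was left out of these counts. Trem2 was again higher, 97.5 CPM on day 1 and 232 CPM on day 3, a log2 ratio of 1.26 (0.95–1.54). Stab1 was lower, 152 and 50.6 CPM, a log2 ratio of -1.56 (-2.24 to -1.01). Mertk, the other lower gene, rested on 1 UMI on day 3 (log2 ratio -1.12, -7.02 to 0.84). Gas6 had 35 UMIs on day 1 and 0 in the 49 cells of day 3 (CI up to 7.78 CPM). In clusters with fewer than 40 cells on 1 day, Gas6 was higher on day 3. Il1a-led cells had 4.77 CPM (3.77–5.96) on day 1 and 50.03 CPM (21.6–98.6) in 14 cells of day 3. Ppbp-led cells had 43.0 CPM (39.6–46.7) on day 1 and 102 CPM (61.5–159) in 11 cells of day 3. In Rsad2-led cells the intervals overlapped, with 10.7 CPM (1.29–38.6) in 17 cells of day 1 and 41.1 CPM on day 3. The 5 Gpnmb-led cells of day 1 had 0 UMIs of Gas6.

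Dendritic cell-like cells carried Axl and little Gas6. Of the 10 genes, of which 5 passed 500 UMIs, 3 were more than 2-fold higher on day 3 and 1 was more than 2-fold lower. Of the 5 that passed, 1 (Trem2) was higher and 1 (Msr1) lower, against 5.97% and 5.05% of all genes with at least 500 UMIs in these cells; with a minimum of 50 UMIs, which all 10 passed, these shares were 15.5% and 3.65%. Axl had 17.9 CPM (14.4–21.9) on day 1 and 63.4 CPM (56.7–70.7) on day 3, a log2 ratio of 1.82 (1.49–2.18), and Mertk only 6.92 and 12.01 CPM. Mertk thus took 27.9% (20.4–36.5) of the UMIs of Mertk and Axl in these cells on day 1 and 15.9% (12.4–20.0) on day 3, below its share in macrophages on both days. Trem2 had 75.7 CPM (68.4–83.6) and 292 CPM (277–307), a log2 ratio of 1.95 (1.79–2.11), and Gas6 2.69 CPM (1.47–4.52) and 21.9 CPM (18.0–26.3), a log2 ratio of 2.98 (2.21–3.94). Msr1 was 218 CPM (205–231) on day 1 and 82.9 CPM (75.2–91.2) on day 3, a log2 ratio of -1.39 (-1.56 to -1.23), and Stab1 90.2 and 68.1 CPM, a log2 ratio of -0.40 (-0.61 to -0.20). The dendritic cell list summed to only 785 CPM on day 1 and 594 CPM on day 3 in dendritic cell-like cells. Macrophage markers summed to more there, 3592 CPM on day 1 and 4948 CPM on day 3, with all 10 detected. Neutrophil markers summed to 1489 and 164 CPM. The part of macrophage and neutrophil RNA in the values of the 10 genes was not tested.

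The Plac8-led cluster had Msr1 and Trem2 but hardly any Gas6 or Mertk. Msr1 was 235 CPM (214–258) on day 1 and 257 CPM (239–276) on day 3, and Trem2 was 86.3 CPM (73.7–100.3) and 189 CPM (173–206). Gas6 had 0 UMIs in 193 cells on day 1 (CI up to 1.89 CPM) and 7 UMIs in 339 cells on day 3, and Mertk had 2 and 18 UMIs. Itgb5 was 25.2 CPM (18.6–33.3) and 110.5 CPM (98.6–123), and the intervals do not overlap. Itgav made up 53.8% (43.8–63.5) of the joint UMIs of Itgav and Itgb5 there on day 1 and 34.6% (30.4–39.1) on day 3.

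In neutrophil-like cells the 10 genes ran from 0.390 CPM for Mertk to 27.7 CPM (23.3–32.6) for Stab1 on day 1. On day 3 their levels ran from 7.97 CPM for Mertk to 177 CPM for Trem2. The UMIs of the macrophage genes C1qa, C1qb and C1qc in the 247 neutrophil-like cells of day 3 amounted to 57.2% of what a profile of free RNA alone would give, against 3.34% on day 1. Foreign RNA at that share would give 183 CPM of Trem2 and 58.8 CPM of Axl, where 177 and 60.6 CPM were measured, so these day 3 levels were read as background.

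Fibroblast/FAP-like cells were the main source of Axl, Pros1 and Mfge8 UMIs on both days. Axl had 378 CPM (369–387) on day 1 and 207 CPM (202–213) on day 3, a log2 ratio of -0.86 (-0.92 to -0.81), and 95.03% and 91.3% of cells had a UMI. These cells held 96.0% of all Axl UMIs of cells on day 1 and 57.7% on day 3. Gas6 had 31.0 CPM (28.6–33.6) on day 1 and 226.8 CPM (221–233) on day 3, a log2 ratio of 2.87 (2.75–3.00), close to its ratio in macrophages. Pros1 had 97.1 CPM (92.7–102) and 124 CPM (119–128), a log2 ratio of 0.35 (0.27–0.43), and Mfge8 43.6 CPM (40.7–46.7) and 91.9 CPM (88.1–95.8), a log2 ratio of 1.07 (0.96–1.19). Gas6 thus took 24.2% (22.5–26.0) of the UMIs of Gas6 and Pros1 on day 1 and 64.7% (63.7–65.7) on day 3, below its share in macrophages on both days but shifted in the same direction.

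In all, 6 of the 10 genes were more than 2-fold higher on day 3 in fibroblast/FAP-like cells and 0 more than 2-fold lower, against 15.9% and 8.05% of 7686 genes; 9 of the 10 passed 500 UMIs, all but Mertk, which was 1 of the 6. The days were represented by different clusters, one led by Cxcl5 with 634 of the 664 cells of day 1 and another led by Sfrp2 with 840 of the 849 cells of day 3, so a difference between days is also one between these clusters. Macrophage markers in them summed to 367 CPM on day 1 and 1242 CPM on day 3, with all 10 detected on both days. UMIs of C1q genes set an upper estimate of foreign RNA of 10.4% on day 1 and 32.0% on day 3. At these shares foreign RNA would give 11.7 and 102 CPM of Trem2, and 10.9 and 110.0 CPM were measured. For Stab1 it would give 15.2 and 62.4 CPM, against 15.7 and 47.8 CPM measured, and for Msr1 18.9 and 27.5 CPM, against 27.4 and 35.3 CPM. Trem2 took 28.4% (25.2–31.8) of the UMIs of Trem2 and Msr1 in these cells on day 1 and 75.7% (74.2–77.1) on day 3, close to its 25.5% and 76.3% in macrophages. Trem2 and Stab1 in these cells were read as background, and Msr1 and Mertk were no more than 1.76 times the estimate. Subtracting that RNA would leave Trem2 on day 1 and Stab1 on day 3 below 0, so no ratio could be read for them. Of the other 8 genes, 2 were then more than 2-fold higher, Gas6 (log2 ratio 2.70) and Mertk (1.93), and 1 was more than 2-fold lower, Axl (-1.08). The Mertk ratio rests on 29 UMIs on day 1, or 1.53 CPM, of which foreign RNA could give 0.869 CPM, so it is poorly set.

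**Figure D4:**
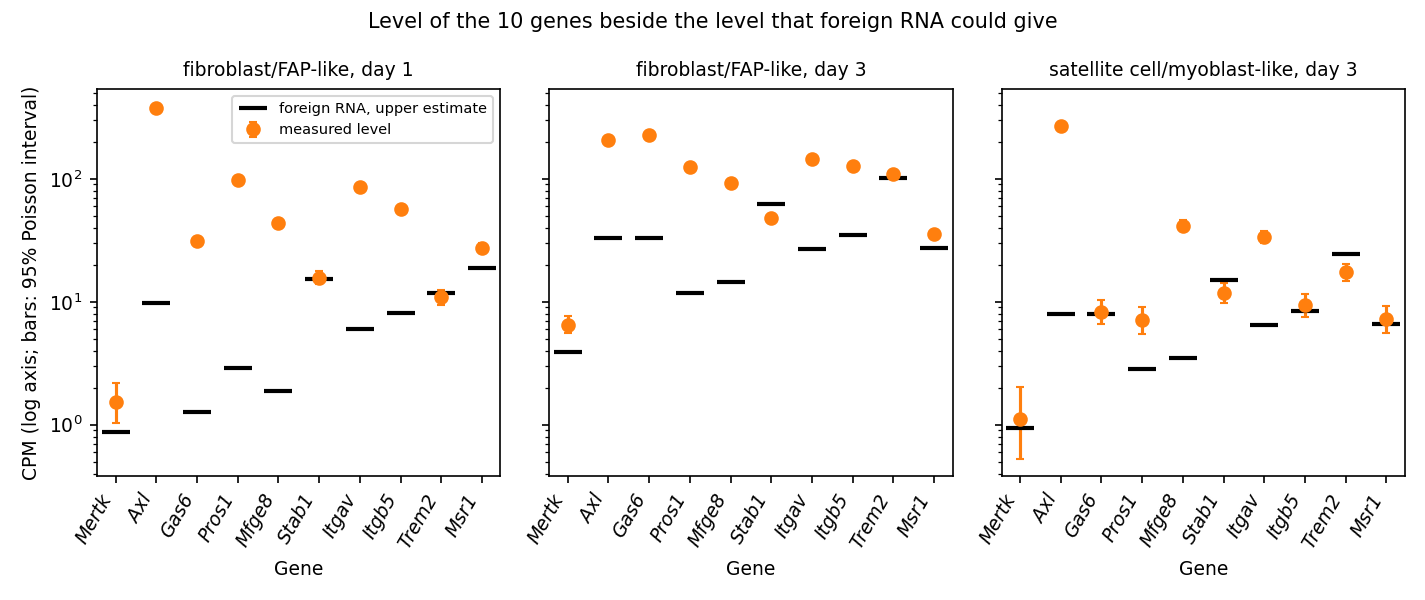
Level (CPM, log axis) of the 10 genes with 95% Poisson intervals, beside the level that foreign RNA could give (black bars, an upper estimate from C1q genes), in fibroblast/FAP-like cells of both days and myoblast-like cells of day 3. Axl, Pros1, Mfge8 and Itgav lie above the black bar in all 3 panels, whereas Stab1 and Trem2 lie near or below it (Trem2 at 110.0 against 102 CPM in fibroblast/FAP-like cells of day 3).

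Satellite cell/myoblast-like cells, led by Gal, Ttn and Myod1, expressed Axl at 268.5 CPM (258–279) on day 3, the highest level of any type on that day, with UMIs in 99.5% of 202 cells. Mfge8 had 41.6 CPM (37.6–46.1) and Itgav 33.7 CPM (30.0–37.7), both above the 3.51 and 6.42 CPM that foreign RNA could give. Gas6, by contrast, had 8.31 CPM (6.53–10.4), where foreign RNA could give 7.90 CPM, so its expression could not be told from background. On day 1 only 6 such cells were present, and all 6 had Axl UMIs (147 CPM, 99.2–210).

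In the 58 endothelial cell-like cells of day 1 the genes Mfge8 (140.3 CPM, 110–177) and Mertk (51.4 CPM, 33.6–75.3) had their highest levels of any type. The endothelial list summed to 3728 CPM in these cells, below the neutrophil list at 3993 CPM, and the monocyte/macrophage list to 963 CPM. The part of neutrophil and macrophage RNA in these levels was not tested. Axl had 2 UMIs there (3.95 CPM, 0.479–14.3), the reverse of fibroblast/FAP-like cells. The 17 cells of day 3 had 569.6 CPM (457–702) of Mfge8 and 4 UMIs of Mertk, too few cells to compare the days. In those 17 cells the pericyte/smooth muscle list summed to 1877 CPM and the endothelial list to 4544 CPM. The part of pericyte or smooth muscle RNA in the Mfge8 level was not tested.

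The wider pathway was followed with 76 further genes, listed by role. In macrophages 59 of them passed 500 UMIs, and 16 were more than 2-fold higher on day 3 and 7 more than 2-fold lower, with a median log2 ratio of 0.41, against 0.34 over all genes. Of all genes 20.3% were higher and 5.47% lower, and the list was chosen with earlier results of these data known.

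Among 12 other bridging molecules and opsonins, 9 passed, of which 5 were higher and 2 lower. The C1q chains, which opsonize dying cells, were higher and also served to name macrophages: C1qa had 507 CPM on day 1 and 2051 CPM on day 3 (log2 ratio 2.01) and C1qc 408 and 1367 CPM (1.74). Thrombospondin-1, Thbs1, had 4895 CPM on day 1 and 525 CPM on day 3, a log2 ratio of -3.22, and fibronectin, Fn1, had 2898 and 406 CPM, a log2 ratio of -2.83. Bridging molecules thus differed in direction, with Thbs1 and Fn1 higher on day 1 and Gas6, Mfge8 and C1q higher on day 3.

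Of 23 other uptake receptors, 13 passed, 1 was higher and 2 were lower. Havcr2, a phosphatidylserine receptor of the Tim family, had 22.8 CPM on day 1 and 63.4 CPM on day 3 (log2 ratio 1.47), and Itgb1, a partner of Itgav, had 166 and 323 CPM (0.96). Cd163, the hemoglobin scavenger receptor, had 71.1 and 11.6 CPM (-2.62), and Olr1, a receptor for oxidized lipoprotein, had 41.5 and 11.1 CPM (-1.91). The third TAM receptor, Tyro3, had 4 UMIs and Timd4 had 9 UMIs over both days in macrophages, so neither could be followed at this depth.

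Of 12 adaptors and engulfment genes downstream 10 passed, 2 were higher and 0 lower. Dock1, an exchange factor for Rac1, had 6.18 and 21.0 CPM (log2 ratio 1.76) and its partner Elmo1 37.2 and 83.6 CPM (1.17). Syk, a kinase recruited by Tyrobp, had 167 and 112 CPM (-0.57), and Tyrobp itself, the adaptor of Trem2, had 2637 and 2150 CPM (-0.29). The level of Tyrobp was thus lower on day 3 while that of Trem2 was higher.

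Of 12 genes for handling the lipid of engulfed cells all 12 passed, 5 were higher and 0 lower. They included the cholesterol exporter Abcg1, with 8.60 CPM on day 1 and 73.6 CPM on day 3 (log2 ratio 3.10) and the acid lipase Lipa, with 59.6 and 325 CPM (2.45). The 2 lowest of the role were Ppard, with 28.3 and 18.2 CPM (-0.63), and Ucp2, with 879.5 and 679.6 CPM (-0.37).

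All 7 receptors for find-me signals passed, 2 higher and 2 lower. Cx3cr1, the fractalkine receptor, had 5.72 CPM on day 1 and 140.5 CPM on day 3 (log2 ratio 4.62) and P2ry12, a nucleotide receptor, 1.81 and 22.5 CPM (3.62). Gpr132, a receptor for lysolipids, had 122 and 21.98 CPM (-2.47) and the nucleotide receptor P2ry2 20.2 and 6.83 CPM (-1.56). Of 6 don't-eat-me genes 5 passed, 0 higher and 1 lower: Cd24a had 174 and 54.3 CPM (-1.68) and Pilra 100.5 and 52.4 CPM (-0.94), and Sirpa, the receptor of Cd47, had 259.9 and 472 CPM (0.86) and Cd47 182 and 299.6 CPM (0.72).

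Of the 4 sheddases and enzymes of Gla modification, 3 passed and 1 was higher. Vkorc1, the vitamin K reductase on which the Gla domains of Gas6 and Pros1 depend, had 10.8 and 63.0 CPM in macrophages (log2 ratio 2.54), and the proteases that shed Mertk and Axl, Adam17 and Adam10, had log2 ratios of 0.59 and 0.64. In fibroblast/FAP-like cells all 4 passed and were more than 2-fold higher, and Vkorc1 had 90.5 and 308 CPM (1.77). Of the 76 genes, 45 passed in these cells, 19 were higher and 1 lower, against 15.9% and 8.05% of all genes. The 19 include the C1q genes, from which foreign RNA was estimated in these cells, and Cx3cr1, with 1.59 and 31.8 CPM (4.30), while macrophage markers summed to 367 and 1242 CPM; their part in the count was not tested.

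Patterns over 10 groups (cell types by day with at least 50 cells) were compared by Pearson's r of log2(CPM + 1) for 10388 genes. The groups share 2 libraries and the same types, so these values describe likeness only. They include neutrophil-like cells of day 3 and fibroblast/FAP-like cells, where Trem2 was read as background. Foreign RNA was not subtracted, and its part in the values of r was not tested. Trem2 was most like C1qa (r = 0.978), the lysosomal gene Pld3 (0.977) and Tmem37 (0.977), and Msr1 most like Slc7a8 (0.995), the factor XIII gene F13a1 (0.987) and the IgG receptor Fcgr1 (0.985). Gas6 was most like Rnase4 (0.948), Tmem119 (0.946) and Atraid (0.943), and Mfge8 most like Sptbn1 (0.989), Hes1 (0.970) and Nfe2l1 (0.960). Mertk was most like Mospd2 (0.970), Casp8 (0.954) and Mapk3 (0.951), and Stab1 most like Mpp1 (0.963), the macrophage gene Adgre1 (0.962) and Tpp1 (0.960). Axl was most like Asrgl1 (0.969), Echdc1 (0.965) and Nudt8 (0.961), and Pros1 most like Cyth3 (0.969), Creb3l2 (0.968) and Pkdcc (0.956). Itgav was most like Gaa (0.978), Tango2 (0.958) and Aga (0.953), and Itgb5 most like Ifi207 (0.985), Slc36a1 (0.982) and Ifi203 (0.973). Among the 10 genes themselves, Gas6 and Itgav (0.922), Stab1 and Msr1 (0.891) and Itgb5 and Trem2 (0.853) were the most alike, whereas Mertk and Axl had an r of -0.301.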

How the data were processed

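Mononuclear cells of injured quadriceps were profiled with a droplet-based 3′ kit, and the files the authors deposited hold raw counts of UMIs for each gene in each barcode, made on mm10. The submitters' processing notes name Cell Ranger 5.0.0, whereas the header of the files names another version. Barcodes with at least 1000 UMIs, 200 genes and at most 7.5% mitochondrial UMIs were kept as cells. Scrublet, run in scanpy 1.11.5, called 1 and 0 doublets by its automatic threshold and was not used; leaving out the highest-scoring 363 and 171 cells, at 0.8% per 1000 cells, was an alternative.

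Cells were clustered with Seurat 5.3.0 and sctransform 0.4.2 in R 4.3.3 (3000 variable features, of which 2883 were used after the 10 genes, the pathway list and the naming markers were removed, 10 principal components, resolution 0.8). The S minus G2M difference and the mitochondrial share were regressed out. A cluster was named from marker lists where at least 3 markers were raised 2-fold over the lower quartile of clusters (10 CPM added) and its 10 leading genes held no more markers of any other list. From the cluster with endothelial and T/NK cells only cells with more endothelial UMIs were named. The scoring rule and that split were chosen after seeing the data. Counts were summed over the cells of a type and day, with exact Poisson intervals for levels, exact binomial intervals for shares and for the log2 ratio of days (0.5 UMIs added), at 95%. Ratios were read past 2-fold, and genes with at least 500 UMIs formed the background. With 1 library per day no test was run, and intervals cover counting error only. Cells were thinned to 3000 UMIs for shares.

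Foreign RNA was estimated from barcodes with at most 100 UMIs, scaled to collagen and Dcn UMIs in macrophages and the Plac8-led cluster and to C1q UMIs in other types; it is an upper estimate and was not made for dendritic cells, which have C1q above it. The text names all 10 genes, the 2 highest and 2 lowest ratios per role of the pathway list in macrophages among genes with at least 500 UMIs, and the 3 genes most like each of the 10. A gene of the pathway list was not analysed here. The 10 genes and all lists were chosen with earlier results of these data known. Alternatives were another call of cells, a limit of 15% mitochondrial UMIs, doublets left out, other resolutions and normalization, other selections of cells, other averages, centring, subtraction of foreign RNA, a minimum of 50 UMIs and, added after seeing the data, single clusters. Scripts were tested on simulated data.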

Additional observations from a re-analysis of the deposited data

Results flagged for a closer look

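In 6 comparisons the log2 ratio of the days had opposite signs in a pair of cell types. The differences were not tested, since each day has 1 library. Axl was higher on day 3 in monocyte/macrophage-like cells (2.33) and lower in fibroblast/FAP-like cells (-0.86), a difference of 3.20. In dendritic cell-like cells its ratio was 1.82, which differed from that of fibroblast/FAP-like cells by 2.69. Stab1 had a ratio of 1.34 in macrophages and of -0.40 in dendritic cells, a difference of 1.74. Its ratio in fibroblast/FAP-like cells was 1.60, where its level was no higher than foreign RNA could give on day 3, and the difference of dendritic from fibroblast/FAP-like cells was -2.004. Msr1 had ratios of -0.51 in macrophages, -1.39 in dendritic cells and 0.36 in fibroblast/FAP-like cells. Macrophages thus differed from fibroblast/FAP-like cells by -0.88 and dendritic cells by -1.76, and the fibroblast/FAP-like ratio turned to -0.12 when foreign RNA was subtracted.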

How the results depend on the processing

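No paired analysis was possible because each day has 1 library. In macrophages the count of genes more than 2-fold higher on day 3 was 8; it was 5 when cells were called at 10% of the 99th percentile of UMIs and 4 when ratios were centred on the median of all genes, which turned Pros1 to -0.032. In single clusters, a comparison chosen after seeing the data, the count was 3 in Fcrls-led and 1 in Dmkn-led cells, and 2 genes were then more than 2-fold lower in Dmkn-led cells against 0 in all macrophages. In Fcrls-led cells the sign turned for Mertk (-0.030), Pros1 (-0.50) and Msr1 (0.054), and in Dmkn-led cells for Mertk (-1.12), Mfge8 (-0.14) and Stab1 (-1.56); Gas6, with 0 UMIs on day 3, was left out there. In fibroblast/FAP-like cells 6 genes were higher and 0 lower. With foreign RNA subtracted these counts were 3 and 2; Msr1 turned to -0.12, and Stab1 came to -4.77; the calls of Stab1 and of Trem2 among these rest on a level that subtraction put below 0 and that was set to 0, and cannot be read. With centring 1 gene was lower. The number of cells on the smaller side limits the comparisons within clusters (46 and 49 cells), and the spread between mice is not known. The causes of these changes were not tested.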
